A study of Mus musculus with 15 samples.

Results

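The Reg genes encode small secreted proteins of the C-type lectin fold, first described in regenerating islets and in pancreatic juice during pancreatitis. Acinar cells make them in large amounts when the pancreas is injured, and cytokines that signal through STAT3, such as IL-6 and IL-22, are known to raise their transcription. Reg1 is related to the pancreatic stone protein of juice, and Reg2 is the member closest to it in coding sequence. Reg3a, Reg3b, Reg3d and Reg3g belong to type III, which includes the pancreatitis-associated proteins. Reg3b and Reg3g also serve as antibacterial lectins of the gut. All 6 genes were taken by name and not by a cutoff on their values, although earlier results of these data were known. All 6 passed the filter on low counts in each of 3 count tables, which list 15175, 49585 and 49585 genes.

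RNA-Seq had been performed on the pancreas of C57BL/6 mice, and each of the 15 libraries held RNA pooled from 3 mice. The first table holds 3 MC libraries (label HPK1-M46 transgenic, or M46/B) and 3 B control libraries, all aged 2 months, and the second holds 3 libraries labelled HC (HPK1/B) and 2 WT controls, all aged 4 months. Mice of both of these tables received cerulein, a cholecystokinin-like peptide whose excess injures acinar cells and brings on acute pancreatitis. The third table holds 2 KMC libraries, with M46 and aged 9 months, and 2 KC libraries, without M46 and aged 15 months. HPK1, encoded by Map4k1, is a kinase of the MAP4K family, and M46 is its kinase-dead form. B stands for Bac-cre, a tamoxifen-inducible Cre under the acinar elastase I promoter, so that HPK1 and M46 were meant to be switched on in acinar cells, while endogenous Map4k1 stayed in place in every group. KC and KMC share the Cre and are otherwise named here as in the design text, and they differ in M46, in age and in library sex markers. The design text names cerulein for the first 2 tables and gives none for KC and KMC. The labels call every sample pancreas, whereas the study describes the KC and KMC material as tumor samples.

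Totals ranged from 29766575 to 38745907 counts per library, so that 3 counts, the upper limit behind a value of 0, equal 0.0774 to 0.101 CPM (counts per 1000000). Acinar marker genes took 36.6 to 54.7% of the counts in the MC experiment and 24.2 to 66.9% in the KMC experiment. They took only 5.71 to 8.95% in the HC experiment, although the labelled tissue is the same. Map4k1 was at 7.54 ± 0.763 CPM in MC against 3.42 ± 0.958 CPM in its controls (SD, n = 3 each) and at 8.64 against 1.05 CPM (means of 2 libraries each) in KMC and KC. It was at 6.76 ± 1.52 CPM (SD, n = 3) in the libraries labelled HC against 13.5 ± 2.74 CPM (SD, n = 2) in WT controls, which goes against the label. Whether reads of the transgenes count toward Map4k1 is not stated in the sources used here. Macrophage markers, given below, were also lower in the libraries labelled HC, and the cells behind the Map4k1 counts were not tested. Library HC 3 had 1525 counts of the Y-linked Ddx3y, and the other 4 libraries of its experiment had 0. Both KC libraries had Ddx3y counts (157 and 448) and both KMC libraries had none, so that sex and M46 cannot be told apart there. Markers of infiltrating and neighboring cells also moved with the groups, and those whose groups did not overlap are given beside each result.

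The 6 genes lie side by side on chromosome 6 of GRCm38, over 98.22 kb from 78370657 to 78468872, with no other annotated gene between the first and the last. Their order is Reg3b (78370657 to 78373466, plus strand), Reg3d (78375874 to 78378865, minus strand), Reg3a (78380709 to 78383827, plus), Reg2 (78395623 to 78408106, plus), Reg1 (78422711 to 78428667, plus) and Reg3g (78466269 to 78468872, minus). The 130 bases before the start of each gene are shown from RefSeq (GRCm38.p6) so that the start regions of these neighboring genes can be compared. The stretches lie at chr6:78425853-78425982 and chr6:78405025-78405154 for Reg1 and Reg2 and at chr6:78380579-78380708, chr6:78370755-78370884, chr6:78378866-78378995 and chr6:78468875-78469004 for the type III genes. Each is read 5′ to 3′ on the strand of the gene, ends at the base before the start, and has in capitals every match to the motifs named after the sequences. The starts are those of RefSeq, and those of Reg1, Reg2 and Reg3b lie inside the GENCODE spans given above.
Reg1: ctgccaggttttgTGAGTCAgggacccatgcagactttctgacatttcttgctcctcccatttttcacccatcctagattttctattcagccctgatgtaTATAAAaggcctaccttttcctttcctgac
Reg2: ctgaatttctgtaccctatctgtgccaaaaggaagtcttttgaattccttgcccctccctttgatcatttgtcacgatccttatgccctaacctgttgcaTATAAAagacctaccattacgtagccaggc
Reg3a: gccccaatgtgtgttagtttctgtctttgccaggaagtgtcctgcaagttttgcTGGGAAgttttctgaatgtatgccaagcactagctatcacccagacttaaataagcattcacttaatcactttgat
Reg3b: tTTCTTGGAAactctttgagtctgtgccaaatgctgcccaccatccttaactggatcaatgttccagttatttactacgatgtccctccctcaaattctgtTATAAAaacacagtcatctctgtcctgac
Reg3d: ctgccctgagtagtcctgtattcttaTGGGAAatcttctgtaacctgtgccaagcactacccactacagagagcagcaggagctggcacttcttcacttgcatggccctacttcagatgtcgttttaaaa
Reg3g: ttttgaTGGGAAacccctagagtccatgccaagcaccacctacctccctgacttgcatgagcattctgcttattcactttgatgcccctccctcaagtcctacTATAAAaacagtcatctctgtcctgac

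The motifs, searched on both strands in the 250 bases before each start, were the E-box CACCTG and the RBPJ core TGGGAA (together the parts of the site of the acinar factor PTF1), the STAT site TTCNNNGAA, the AP-1 site TGANTCA and the TATA box TATAAA. The TATA box stood 27 to 30 bases before the start of Reg1, Reg2, Reg3b and Reg3g, and TATAAA was found in 12.4% of all 32851 promoter windows. A STAT site was found in the windows of Reg3b (TTCTTGGAA, 129 bases before the start) and Reg3d (TTCCCAGAA, 238 bases before), against 7.02% of all windows, and the site of Reg3d overlaps a reversed RBPJ core. The E-box was in 4 windows (Reg2, Reg3a, Reg3b and Reg3d) against 17.2% of all, the RBPJ core in 5 (all but Reg3b) against 21.6%, and the AP-1 site, TGAGTCA, in that of Reg1 alone against 6.75%. The E-box matches lie upstream of the stretches shown. No match says only that these letters are absent from the window.

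The coding sequences of the members are 495 to 525 bases long and 70.7 to 83.4% identical between pairs, with Reg1 and Reg2 the closest and Reg2 and Reg3g the least alike. The longest identical run between transcripts of any pair was 35 bases (Reg3b and Reg3g). No 100-base stretch of any annotated transcript of a member occurred in another member, so exact reads of that length can be told apart between members. Other genes and reads with mismatches were not searched.

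All 6 genes were expressed in all 15 libraries, from 1006 counts (Reg3d in HC 1) to 729526 counts (Reg1 in MC 1). Together they took 3.17 to 4.28% of all counts in B controls, 3.67 to 5.89% in MC, 0.418 to 0.751% in WT controls, 0.292 to 0.644% in the libraries labelled HC, 2.52 to 4.43% in KC and 2.68 to 3.28% in KMC. The smallest share, 0.292% in HC 1, had a 95% Wilson interval from 0.290 to 0.293%, which covers counting error only. The family share was low in the experiment in which acinar markers were low, and in bulk tissue fewer acinar cells and less RNA per cell cannot be told apart. Levels were not tested across tables.

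Levels of different members were compared as CPM per kb of coding transcript. Reg1 came first and Reg2 second in all 6 groups, followed by Reg3b and Reg3a. In B controls Reg1 was at 25298 ± 6666, Reg2 at 17925 ± 6445, Reg3b at 10371 ± 5999 and Reg3a at 1647 ± 1030 CPM per kb (SD, n = 3). Reg1 and Reg2 overlapped between libraries in every group, whereas the ranges of Reg3b and Reg3a were separate in B controls, MC, WT controls and the libraries labelled HC and overlapped in KC and KMC. The last places were taken by Reg3g and Reg3d, with Reg3g above Reg3d on average in B controls (1201 ± 455 against 561 ± 333 CPM per kb, SD, n = 3) but below it in KC and KMC. In KMC the ranges of this last pair were 233 to 234 for Reg3g and 329 to 400 CPM per kb for Reg3d.

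**Figure D1:**
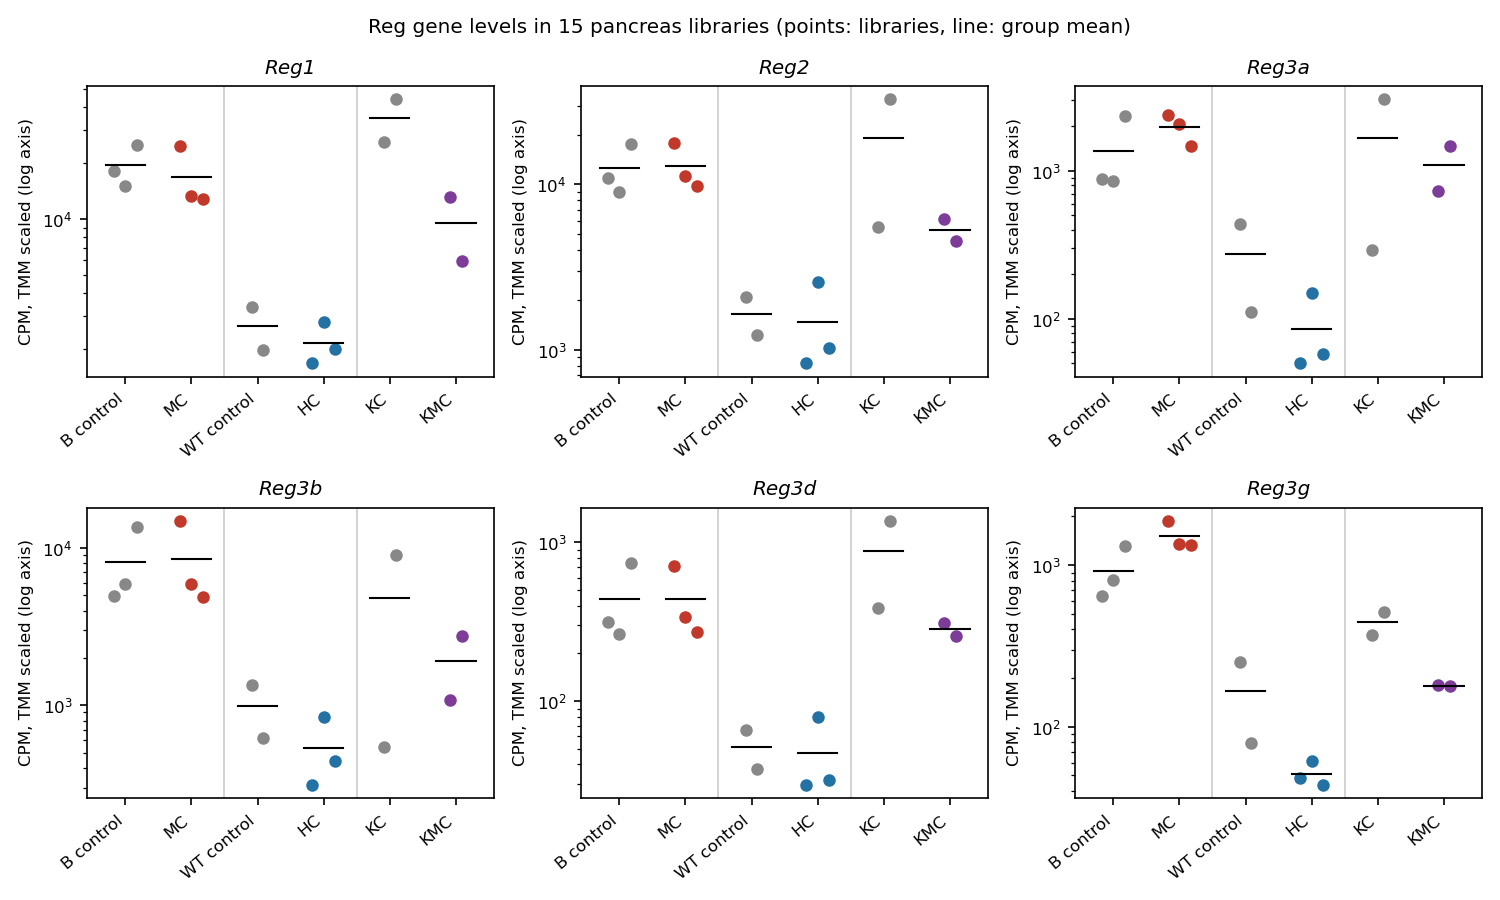
Level of each Reg gene in 15 libraries, as CPM scaled by TMM on a log axis. Points are libraries, lines are group means, and grey vertical lines separate the 3 tables, between which levels were not tested. Reg3g lies higher in all MC libraries (1326 to 1883 CPM) than in all B controls (647 to 1320 CPM), and the other 5 genes overlap between those groups.

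The first comparison asked whether Reg expression after cerulein differed in mice with kinase-dead HPK1. Reg3g, the antibacterial lectin, was at 647, 811 and 1320 CPM in B controls and at 1883, 1344 and 1326 CPM in MC. Each MC library was above each control, although the highest control and the lowest MC library nearly touched. The fold change was 1.64 (log2 0.71, standard error 0.31), and edgeR's quasi-likelihood F test gave an adjusted p of 0.34 (Benjamini-Hochberg over all genes). None of the 6 members was called, which took both an adjusted p no larger than 0.05 and a log2 change of 1 or more in either direction, where edgeR called 0% of 13902 genes. No member had an unadjusted p under 0.05 in edgeR, against 14.7% of genes, and Reg3g came nearest with 0.0508. DESeq2 gave Reg3g an unadjusted p of 0.0168 and also called 0 of the 6, against 3.26% of genes. Over 14 alternatives the adjusted p of Reg3g ran from 0.0933 to 0.710, and the direction was the same in all 14.

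Reg1 and Reg2 overlapped between MC and controls. Reg1 was at 18069, 15164 and 25131 CPM in controls and at 24658, 13253 and 12776 CPM in MC, a log2 difference of -0.20 (standard error 0.43, adjusted p = 0.827 from edgeR). MC 1 and control 3 were high and the other 4 libraries lay below them. Reg2 differed by 0.05 (standard error 0.42) on the log2 scale, over a range of 8991 to 17895 CPM.

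Of the other type III genes, Reg3a was at 880, 856 and 2339 CPM in controls and at 2377, 2075 and 1466 CPM in MC. The 2 low controls lay below every MC library, and the third lay among the highest. Its log2 difference was 0.54 (standard error 0.43, adjusted p = 0.541 from edgeR). Reg3b, the most abundant type III gene, differed by 0.08 (standard error 0.57) and ran from 4879 to 14905 CPM in MC and from 4948 to 13517 CPM in controls. Reg3d differed by 0.01 (standard error 0.48). Control 3 was the highest control for all 6 genes, and MC 1 the highest MC library for all 6. With TMM, the groups did not overlap with MC higher for Reg3g, 1 member of 6, where this held for 10.9% of all genes. No member lay lower without overlap, against 9.89% of genes. By total counts, Reg3a and Reg3g lay higher in MC without overlap, 2 members of 6. The share over all genes was not counted on that scale.

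The make-up of the counts within the family was also compared. As a share of all Reg counts, Reg3g alone separated MC from B controls, and type III genes together overlapped (19.0 to 29.6% in controls against 26.1 to 31.8% in MC). Reg3g gave 35.8, 53.5 and 52.5 counts per 1000 Reg1 counts in B controls and 76.4, 101 and 104 in MC. All 3 MC libraries were above all controls in this ratio, which does not depend on the scaling of libraries. Reg3a gave 48.7 to 93.1 per 1000 Reg1 counts in controls and 96.4 to 157 in MC, without overlap but nearly touching. Reg2, which is not of type III, did not overlap either (593 to 699.5 against 726 to 852). Reg3b (274 to 538 against 382 to 605) and Reg3d (17.3 to 29.35 against 21.4 to 28.7) overlapped. All of these ratios share the Reg1 counts as their base, so the separation was not particular to type III genes. The family gave 6.37 to 8.73 counts per 100 counts of acinar markers in controls and 9.80 to 13 in MC. How many of all genes separate in such shares and ratios was not counted. These ratios were formed after the levels were known and are given as descriptions.

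**Figure D2:**
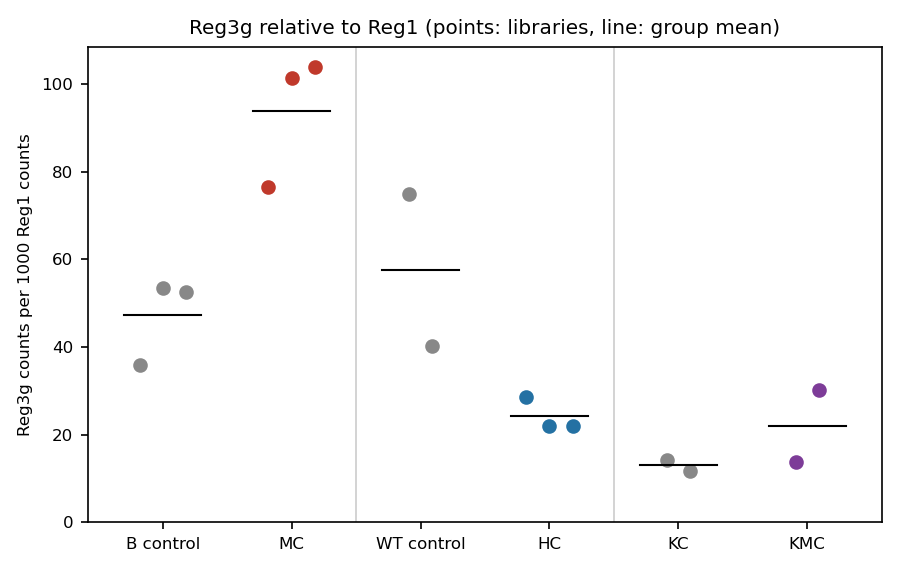
Reg3g counts per 1000 Reg1 counts in each library, on a linear axis that starts at 0. Points are libraries, lines are group means, and vertical lines separate the 3 tables. MC libraries lie at 76.4 to 104, above their controls at 35.8 to 53.5, and libraries labelled HC at 21.9 to 28.7, below theirs at 40.3 to 74.9.

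Markers of other cells also moved with the groups. T cell markers (6 of 8 listed in the table) summed to 5.33 to 7.81 CPM in MC against 1.05 to 1.65 CPM in controls, and adipocyte markers (5 of 5) to 58.0 to 119 against 26.6 to 35.2 CPM. Macrophage markers (7 of 8) summed to 448 to 862 against 148 to 511 CPM, with overlap. Acinar markers took 41.4 to 54.7% of counts in controls and 36.6 to 45.4% in MC, with overlap. Stomach markers (5 of 10 listed) summed to 21.6 to 70.2 CPM in MC and 3.39 to 6.45 CPM in controls. Intestine markers, of interest because the gut makes Reg3b and Reg3g, summed to 30.5 to 56.2 CPM in MC and 16.6 to 25.6 CPM in controls over the 7 of 14 that the table lists, and Muc2 was at 0 in 2 libraries. The part of these cells in the Reg values was not tested.

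The second comparison asked the same of the libraries labelled HC. Their label includes the Cre and that of the WT controls does not, so by the labels HPK1 and the Cre cannot be told apart. All 6 members had lower estimates in the libraries labelled HC than in WT controls. Again edgeR called 0 of 6, where it called 0.565% of 18407 genes. Reg3g was at 253 and 79.2 CPM in WT controls and at 47.8, 61.3 and 43.6 CPM in the libraries labelled HC. Each library labelled HC was below both controls, and WT control 2 lay close to them. The fold change was 0.307 (log2 -1.70, standard error 0.44), with an unadjusted p of 0.00717 and an adjusted p of 0.155 in edgeR. Without WT control 1 the log2 difference was -0.64 (adjusted p = 0.434), and without WT control 2 it was -2.31 (adjusted p = 0.114). DESeq2 called Reg3g with an adjusted p of 0.0023, 1 member of 6 against 2.54% of all genes called in either direction and 1.09% called lower, and edgeR without a filter gave 0.0186. The adjusted p over 14 alternatives ran from 0.0023 to 0.434, and the direction was the same in all 14.

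Reg3a was at 441 and 112 CPM in WT controls and at 49.9, 150 and 57.8 CPM in the libraries labelled HC. WT control 1 stood far above the other 4 libraries, and HC 2 lay above WT control 2. Its log2 difference was -1.69 (standard error 0.66, unadjusted p = 0.0414, adjusted p = 0.294 from edgeR), and without WT control 1 it was -0.38, with an adjusted p of 0.877. Reg3a and Reg3g were thus the 2 members of 6 with an unadjusted p under 0.05, against 15.9% of genes. The groups did not overlap for Reg3g alone, 1 member of 6 with the libraries labelled HC lower, against 16.1% of genes. None lay higher without overlap, against 17.5%.

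Reg3b was at 1355 and 623 CPM in WT controls and at 311, 848 and 441 CPM in the libraries labelled HC, a log2 difference of -0.89 (standard error 0.48, adjusted p = 0.429 from edgeR). HC 2 lay between both controls. Reg1 (-0.31, standard error 0.32), Reg2 (-0.17, standard error 0.52) and Reg3d (-0.13, standard error 0.47) differed by less than their errors. Type III genes made up 27.9 and 21.1% of the Reg counts in WT controls and 15.0, 17.5 and 16.0% in the libraries labelled HC, without overlap. How often other genes separate in such a share was not counted. HC 2 was the highest of the 3 for all 6 members.

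Libraries labelled HC had more RNA of stomach markers (9 of 10 listed, 5615 to 7532 against 1734 to 2655 CPM) and of intestine markers (14 listed, 708 to 976 against 348 to 367 CPM). They had less of macrophage markers (736 to 1040 against 1245 to 1860 CPM) and neutrophil markers (60.2 to 82.2 against 99.0 to 145 CPM). Ductal markers (12 listed) summed to 7450 to 9031 against 6140 to 6870 CPM and islet markers (8 listed) to 3532 to 5639 against 2949 to 3314 CPM. Of the 14 intestine markers, 2 to 5 were at 0 in each library, with Apoa4 and Defa24 at 0 in all 5 libraries and Sis in 4. The other markers of the list make up the sum, which was higher in the libraries labelled HC, while Reg3g was lower there. The part of these cells in the Reg values was not tested. Without HC 3, the library with Y-linked RNA, Reg3g differed by -1.62 on the log2 scale (adjusted p = 0.294 from edgeR).

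The third comparison, KMC against KC, addressed the same question in KC mice. With TMM scaling all 6 members had lower estimates in KMC, and none was called by edgeR, which called 0.0191% of 15733 genes. Reg1 was at 44216 CPM in KC 1 and 25923 CPM in KC 2, and at 13149 and 5955 CPM in KMC. Both KMC libraries were below both KC libraries. The fold change was 0.272 (log2 -1.88, standard error 1.82, adjusted p = 0.535 from edgeR). The TMM factors ran from 0.487 to 0.7625 in KC and from 1.24 to 2.17 in KMC. With library size alone, the log2 difference was -0.50 for Reg1 and -0.21 for Reg2. The family gave 4.29 to 6.61 counts per 100 counts of acinar markers in KC and 5.60 to 13.57 in KMC, with overlap.

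Reg3g was at 516 CPM in KC 1 and 372 CPM in KC 2 and at 180 and 179 CPM in KMC. Both KMC libraries were again below both KC libraries, with a fold change of 0.405 (log2 -1.30, standard error 0.54, unadjusted p = 0.0449, adjusted p = 0.187 from edgeR). As CPM of total counts, however, Reg3g was at 224 and 389 in KMC and at 251 and 283 in KC, so the groups overlapped and the difference took the other sign (log2 0.20). Scaling by library size alone moved the median of all genes to 1.47 on the log2 scale, from 0.03 with TMM, and relative to that median Reg3g stayed lower. Reg3d was at 1370 CPM in KC 1 and 387 CPM in KC 2 and at 313 and 258 CPM in KMC, which did not overlap with TMM either (log2 -1.62, standard error 0.79, adjusted p = 0.234 from edgeR). As CPM of total counts, Reg3d overlapped as well (389 and 559 in KMC against 667 and 295 in KC), with a log2 difference of -0.02 under that scaling. With TMM, the KMC libraries were lower without overlap for 3 members of 6, where 30.9% of genes were lower, and by total counts for 1 of 6 (Reg1). With TMM no member was higher without overlap, against 34.4%, and 1 of 6 had an unadjusted p under 0.05, against 25.6%.

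DESeq2 called 4 of 6 members lower in KMC, against 4.47% of genes lower and 13.7% in either direction. It also called 25 of 29 acinar markers lower there. Its adjusted p was 0.00228 for Reg1, 0.0289 for Reg2, 0.0246 for Reg3d and 0.00981 for Reg3g. The highest adjusted p over 13 alternatives was 0.9 for Reg1, 0.991 for Reg2, 0.981 for Reg3d and 0.818 for Reg3g. With 2 libraries against 2, the 2 tools thus gave different answers for the same counts, and the cause was not tested. Without KC 1, the edgeR estimate of Reg2 was -0.06 and that of Reg3d was -0.45 on the log2 scale.

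For Reg3a and Reg3b both KMC libraries lay between KC 1 and KC 2. Reg3b was at 9007 CPM in KC 1 and 547 CPM in KC 2, with KMC at 1085 and 2744 CPM. Reg3a was at 3049 and 293 CPM in the same KC libraries and at 733 and 1474 CPM in KMC. Reg2 was at 32778 and 5508 CPM in KC and at 6137 and 4522 CPM in KMC. KC 2 was low in these 3 genes while its Reg1 was high, so type III genes made up 4.84% of its Reg counts against 15.3% in KC 1 and 10.7 and 30.8% in KMC. Without KC 1, the estimates of Reg3a and Reg3b turned to 1.90 and 1.79 on the log2 scale.

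**Figure D3:**
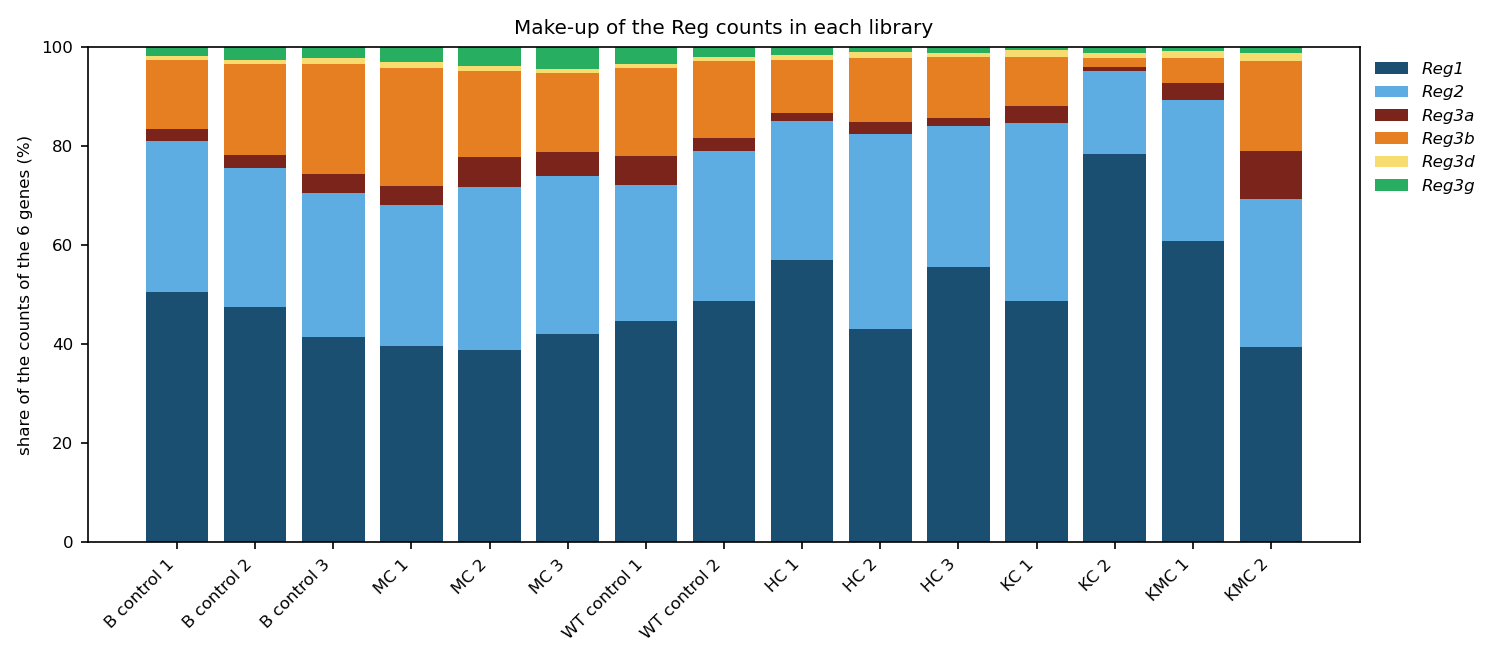
Make-up of the Reg counts in each library, as the share of the summed counts of the 6 genes on a linear axis from 0 to 100%. Each bar is 1 library. Reg1 takes 78.5% in KC 2, the largest share of any library, and 38.8% in MC 2, the smallest.

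Acinar markers took 58.7 to 66.9% of counts in KC and 24.2 to 48.0% in KMC. Fibroblast markers (2634 to 13450 against 206 to 673 CPM), macrophage markers (563 to 2463 against 61.3 to 106 CPM) and neutrophil markers (29.4 to 159 against 1.06 to 6.25 CPM) lay higher in KMC without overlap. So did ductal markers (880 to 2095 against 314 to 409 CPM), islet markers (1684 to 1869 against 1220 to 1502 CPM) and T cell markers (14.0 to 30.3 against 1.62 to 2.595 CPM). Stomach markers (9 of 10 listed) summed to 75.4 to 162 against 8.74 to 20.8 CPM, and intestine markers to 19.3 to 93.6 against 6.69 to 10.9 CPM, with Apoa4, Cdx1, Cdx2, Fabp1 and Sis at 0 in all 4 libraries. Their part in the Reg values was not tested, and age, sex and M46 cannot be told apart in this experiment.

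**Figure D4:**
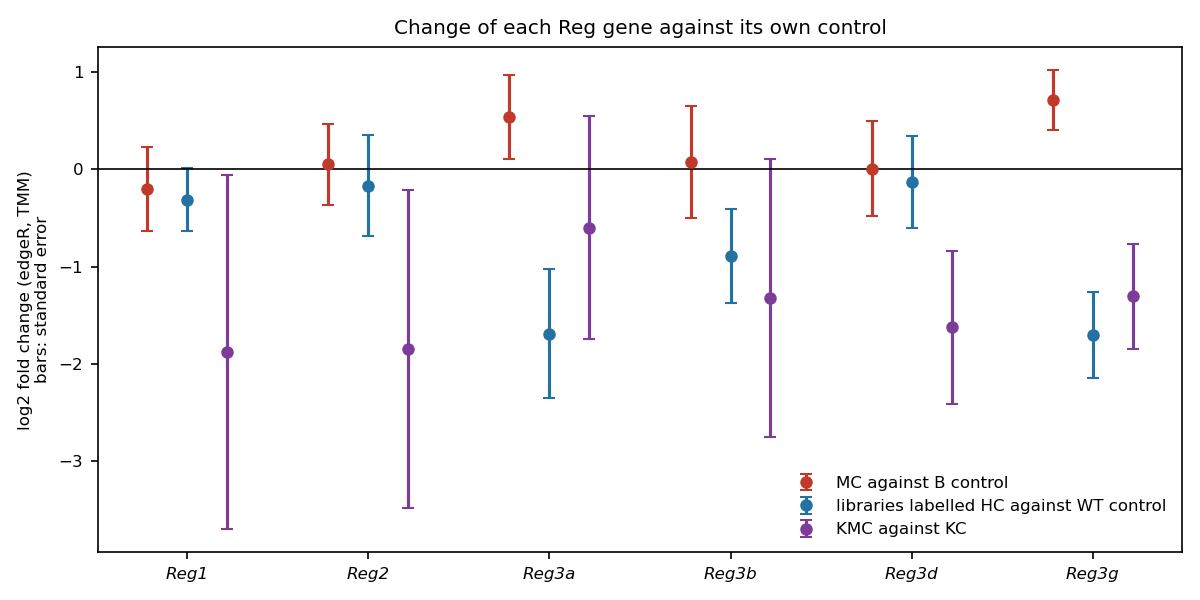
Log2 fold change of each Reg gene against its own control, from edgeR with TMM scaling, with bars of 1 standard error. Points are colored by comparison. The estimates for Reg3g are 0.71 in MC, -1.70 in the libraries labelled HC and -1.30 in KMC.

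The difference between the MC and HC experiments was then tested directly. With the groups as labelled, the difference of MC from B control exceeded that of the libraries labelled HC from WT control for Reg3g by 2.40 on the log2 scale (standard error 0.59), with an unadjusted p of 0.00194 and an adjusted p of 0.0578 in edgeR. Reg3g thus missed the threshold by a narrow margin, and 0 of 6 members were called, where 2.18% of 14884 genes were. Unadjusted p-values were under 0.05 for 2 of 6 members (Reg3a and Reg3g) and for 20.8% of genes. DESeq2 called it (adjusted p = 0.00218, 1 of 6 members against 6.79% of genes), and over 16 alternatives the adjusted p ran from 0.00218 to 0.267. Reg3a had the next largest difference, 2.20 (standard error 0.88, adjusted p = 0.187 from edgeR), which was 0.90 without WT control 1, and the other 4 members differed by 0.09 to 0.95. Both experiments also differed in age, library kit, acinar marker share and kind of control. MC was set against B controls, and the libraries labelled HC (HPK1/B) against wildtype controls. By the labels, HPK1 and the Cre cannot be told apart in the HC difference. The sign of the contrast rests on the HC label, against which Map4k1 went.

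**Figure D5:**
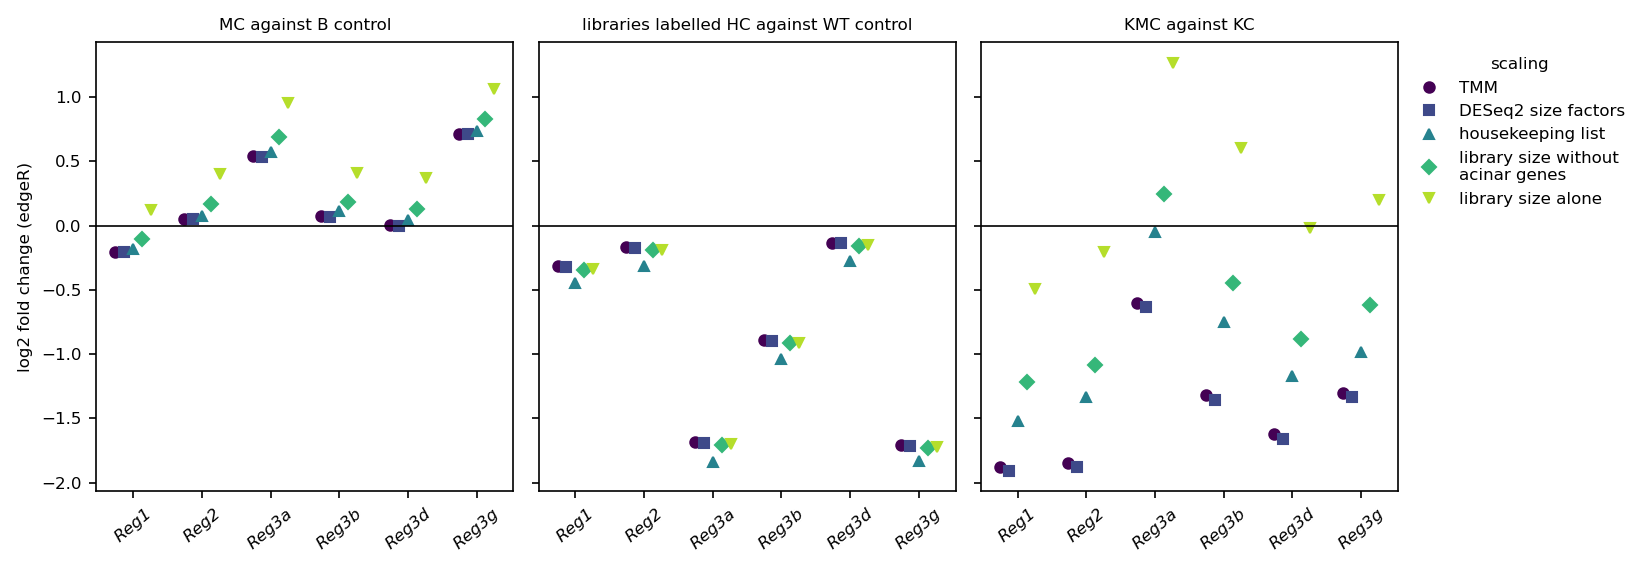
Log2 fold change of each Reg gene from edgeR under 5 scalings of the libraries, in 3 panels for the 3 comparisons. In KMC, Reg3a moves from -0.60 with TMM to 1.27 with library size alone, while in the libraries labelled HC the 5 scalings lie close together, with Reg3g at -1.83 to -1.70.

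Genes of the pathway that is known to raise Reg transcription were examined as a list of 24 genes of gp130, IL-22 and IL-17 signaling to STAT3. In MC, 13 of 20 tested were higher and 7 lower, with 0 called and a median log2 difference of 0.12 against -0.02 over all genes. In the libraries labelled HC, 5 of 22 were higher and 17 lower, with 0 called and a median of -0.14 against 0.00 over all genes, and in KMC 16 of 21 were higher and 5 lower, with 0 called and a median of 0.78 against 0.03. These counts of 0 are from edgeR, with 4 of 20, 4 of 22 and 7 of 21 genes at an unadjusted p under 0.05, against 14.7, 15.9 and 25.6% of all genes. DESeq2 called 1, 0 and 4 (2 higher and 2 lower), against 3.26, 2.54 and 13.7% of all genes. Il6st, the gp130 receptor chain, differed by 0.11 (standard error 0.16) in MC, by -0.13 (standard error 0.17) in the libraries labelled HC and by 0.79 (standard error 0.43) in KMC. Jak1, its kinase, differed by 0.08, -0.15 and 0.20. With TMM scaling, the medians in KMC were -1.47 for the 6 members and 0.78 for the list. With library size alone the members ran from -0.50 (Reg1) to 1.27 (Reg3a), and the list was not summarized under that scaling. A link between the list and the Reg values was not tested.

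Other secreted antimicrobial proteins were tested as a list of 18. In MC, 10 of 12 tested were higher and 2 lower with 0 called (median 0.75), in the libraries labelled HC 5 of 13 were higher and 8 lower with 0 called (median -0.42), and in KMC 10 of 13 were higher and 3 lower with 0 called (median 1.68). The counts of 0 are again from edgeR, with 4 of 12, 4 of 13 and 6 of 13 genes at an unadjusted p under 0.05, against the same 14.7, 15.9 and 25.6% of all genes. DESeq2 called 2, 0 and 5, all higher, against 3.26, 2.54 and 13.7%. Pigr, which carries antibodies across epithelia, had an estimate of 1.49 in MC (standard error 0.19, adjusted p = 0.0781 from edgeR and 2.24e-10 from DESeq2). Lyz2, the lysozyme of myeloid cells, differed by 0.17 in MC, -0.84 in the libraries labelled HC and 2.6 in KMC (adjusted p = 0.133 from edgeR and 0.000236 from DESeq2). Defb1, a defensin, was the only gene of the list that edgeR called in any of the 4 comparisons. With the groups as labelled, its M46 effect minus its HPK1 effect was -2.26 on the log2 scale (adjusted p = 0.0496 from edgeR). This was 1 of 12 genes tested, against 2.18% of all genes. Defb1 was at 4.79 CPM in MC and 7.42 CPM in B controls, and only at 1.95 CPM in the libraries labelled HC and 0.635 CPM in WT controls.

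Of 19 genes of the acinar injury response, 8 were higher and 11 lower in MC (median -0.18), the libraries labelled HC had 11 higher and 8 lower (median 0.06) and KMC had 7 higher and 12 lower (median -0.16), with 0 called by edgeR in each. Unadjusted p-values were under 0.05 for 2, 6 and 12 of them, against 14.7, 15.9 and 25.6% of all genes. DESeq2 called 0, 1 and 12 (in KMC 6 higher and 6 lower), against 3.26, 2.54 and 13.7%. Clu, a secreted chaperone of injured epithelium, differed by -0.17, 0.52 and -0.01. Tff2, a trefoil peptide, differed by -0.61, 1.07 and -2.78, all of which missed the adjusted threshold in edgeR. DESeq2 gave it an adjusted p of 0.0227 in the libraries labelled HC and 0.00024 in KMC. Extl3, a proposed Reg protein receptor, differed by -0.12 in MC (standard error 0.26), -0.27 in the libraries labelled HC (standard error 0.14) and -1.04 in KMC (standard error 0.53), and was not called. Reg4, a relative outside the family cluster, had 0 to 2 counts in the 9 libraries of the other 2 tables and is not listed in the MC table.

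The members were correlated with each other across the 15 libraries to different degrees. On log2 CPM centered within each table, the highest correlation among the 15 pairs was that of Reg2 and Reg3d (Pearson r = 0.96) and the next that of Reg3a and Reg3b (0.90). The lowest was that of Reg1 and Reg3a (0.31), which was 0.424 within the 6 libraries of the MC experiment, 0.933 within the 5 of the HC experiment and 0.0854 within the 4 of the KMC experiment. Reg2 and Reg3d were at 0.985 to 0.994 within each experiment, whereas Reg3a and Reg3g were at 0.912, 0.939 and 0.188. The points share libraries, depth and the scaling, so these values are descriptions.

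Among 13649 other genes, the 3 most like Reg1 were P2rx1 (r = 0.98), Clps (0.98), which encodes the pancreatic colipase, and Rnase1 (0.98), the pancreatic ribonuclease. Those most like Reg2 were Snu13 (0.92), Serpina10 (0.92) and Lsm12 (0.90), and those most like Reg3d were Snu13 (0.92), Slc25a11 (0.89) and Sptssa (0.88). Reg3a was most like Ggct (0.86), Hnrnpc (0.86) and Smap2 (0.80), and Reg3b most like Hnrnpc (0.91), Smap2 (0.87) and Rab14 (0.87). Reg3g had a different set, with Nfasc (0.89), Pon3 (0.83) and E2f1 (0.80). The mean of the 6 members was most like Serpina10 (0.87), Hnrnpc (0.87) and Armc6 (0.87). All these correlations are over 15 libraries, which share depth and scaling with the members, and differences between groups were not removed. Within single experiments they ran from 0.439 (Sptssa with Reg3d, HC experiment) to 0.996 (P2rx1 with Reg1, MC experiment).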

How the data were processed

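RNA-Seq counts of 15 pancreas libraries were used. Per the labels and methods, the authors demultiplexed reads with bcl2fastq 2.17.14, aligned them to mm10 (GRCm38) with STAR 2.6.1a and deposited the counts of each gene unscaled. The methods name STAR for counting and the submitters' processing notes also list HTSeq 0.6.1. The MC table lists fewer genes, and how they were chosen is not given in the sources used here. A deposited table of the authors' DESeq2 fold changes and p-values was not used.

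Genes were filtered with filterByExpr, scaled by TMM and tested within each table with edgeR 4.0.16 (legacy quasi-likelihood fit) in R 4.3.3. The effects in the MC and HC experiments were compared as a contrast over genes in both tables. An item of the genotypes and a second planned contrast that rests on it are not reported here. Standard errors were derived from the log2 estimate and its F value. Alternatives were DESeq2 1.42.0, other scalings, no filter, the replicate number as a block, joint fits and leaving out each library, and a newer edgeR fit chosen after seeing the data. The tests were checked on simulated counts.

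CPM values of genes are scaled by TMM unless stated, and summed marker lists use total counts. Named genes were the 6 members, the 2 most abundant genes per kb of each pathway list, each gene of those lists that was called, Reg4, Extl3, and the 3 genes most correlated with each member and with their mean. The members and lists were chosen with earlier results of these data known. Each library pools mice and may not be an independent experiment, so p-values measure only the spread between libraries.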

Additional observations from a re-analysis of the deposited data

Results flagged for a closer look

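Reg3g was set apart for its difference between the MC and HC experiments. With TMM scaling, every MC library was above every B control, which held for 10.9% of genes. Every library labelled HC was below every WT control, which held for 16.1% of genes. The share of genes with both was not counted, and the contrast rests on these same values, so it is no separate support. With the groups as labelled, the MC difference exceeded that of the libraries labelled HC by 2.40 on the log2 scale (adjusted p = 0.0578 from edgeR), and without WT control 1 it was 1.34 (adjusted p = 0.267). Map4k1 goes against the HC label (6.76 CPM against 13.5 CPM in WT controls), although how transgene reads were counted is not stated. The sign of this contrast rests on that label. The controls also differ by label, B (with the Cre) for MC and wildtype for HC. Over 16 alternatives the adjusted p ran from 0.00218 to 0.267.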

How the results depend on the processing

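Of the member values under the alternatives, 291 kept their direction and their side of the threshold, 10 newly passed it and 41 changed sign, and the cause was not tested. edgeR called 0 members in each comparison. DESeq2 called 1 in the HC comparison, 4 in KMC against KC and 1 in the M46 against HPK1 contrast. Without a filter 1 member (Reg3g) was called in the HC comparison, and with library size alone 1 (Reg3g) in the M46 against HPK1 contrast. Leaving out 1 library gave 0 to 1 called members in that contrast. Reg3g was the one called, without B control 2 (adjusted p = 0.0409) or WT control 2 (0.0268), both from edgeR.

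In MC, Reg3d changed sign with DESeq2 (-0.00085) and with its size factors in edgeR (-0.00076), and Reg1 with library size alone (0.12). In KMC, library size alone gave 1.27 for Reg3a, 0.60 for Reg3b and 0.20 for Reg3g, and leaving acinar genes out of the library size gave 0.25 for Reg3a. Scaling by library size alone put the median of all genes at 0.29 in MC and 1.47 in KMC.

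With 1 library left out, log2 values ran in MC from -0.57 to 0.036 for Reg1, -0.25 to 0.39 for Reg2, -0.59 to 0.67 for Reg3b and -0.51 to 0.62 for Reg3d, with the lowest without MC 1 and the highest without B control 3. In the HC comparison they ran from -0.65 to 0.13 for Reg1, -0.84 to 0.27 for Reg2 and -0.73 to 0.33 for Reg3d, with the highest without WT control 1. In KMC they ran from -1.47 to 1.90 for Reg3a and -2.24 to 1.79 for Reg3b, lowest without KC 2 and highest without KC 1. In the M46 against HPK1 contrast they ran from -0.34 to 0.43 for Reg1, -0.23 to 0.89 for Reg2 and -0.41 to 0.74 for Reg3d, and for Reg3a, which kept its sign, from 0.90 to 2.89. Where an arm was left with 1 library, that library was assumed to vary like the others.

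With the replicate block, 0 members were called in each of 3 comparisons, Reg3g was at 0.76, -1.39 and -1.28 on the log2 scale, and Reg3a in KMC was at 0.14. Same-numbered libraries correlated by 0.0665, 0.296 and -0.297 in MC, by 0.189 and 0.17 in the HC comparison and by 0.0514 in both pairs of KMC and KC. The pairs in MC did not all pass 0.1, while both pairs in the HC comparison did. Where a group holds 2 libraries, as in the HC and KMC comparisons, their centered values mirror each other, so these correlations cannot decide the pairing. No label ties the numbers to a shared day or litter, so the numbers were not taken to pair them. Over all genes, calls in the HC comparison went from 104 to 339 with the block and those in KMC from 3 to 2469. DESeq2 called 453 genes in MC (edgeR 0), 467 in HC, 2159 in KMC and 1010 (edgeR 325) in the M46 against HPK1 contrast. With 2 or 3 pooled libraries per group, 1 library decided several directions, and a small change in a member cannot be told from the spread.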
